A study of Mus musculus with 3 samples.

Results

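The 40 genes described here are imprinted genes of the mouse that lie outside the Dlk1 locus. They were chosen by symbol from a fixed list that was drawn up with earlier results of these data known. Each of the 40 matched exactly 1 of the 53465 genes in the deposited tables. The list was split by the parental allele that is usually active: 9 genes are expressed from the maternal copy, 19 from the paternal copy, and 12 are imprinted only in some tissues or isoforms. Of the 40, 38 had at least 10 unique molecular identifiers (UMIs, each standing for 1 captured RNA molecule) in all cells together. Snurf and Kcnk9 had 0 UMIs in every library and were not measured.

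Whole ovaries of C57BL/6 female mice, with no transgene, deletion or treatment in the labels, were dissociated with collagenase and sequenced as single cells by the droplet method of 10x Genomics, which counts UMIs near the 3' end of each RNA. The series holds 3 libraries, 1 for each age: embryonic day 16.5 (ED16.5; its title gives ED17), postnatal day 7 (PND7) and postnatal day 14 (PND14). The title of the series concerns the oestrogen receptors of the granulosa lineage. The labels do not say how many animals a library pooled. With 1 library per age, a difference between ages has no replicate check. No p-value is given, and every 95% interval below covers counting error only.

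An imprinted gene is transcribed mainly from the copy inherited from 1 parent, because methylation marks set in the egg or sperm persist in the body cells of the offspring. Germ cells erase these marks early in fetal life, and oocytes set new ones while they grow. Many imprinted genes act on fetal growth, with several paternally expressed genes promoting it and several maternally expressed genes restraining it, and a group that includes H19, Igf2, Cdkn1c, Mest, Peg3 and Plagl1 is known to decline after birth in many mouse tissues. The strain is inbred and the tables hold 1 count per gene, so the levels below are the sum of both alleles and say nothing about which copy was transcribed.

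H19 and Mest, which were both much lower in the postnatal libraries, each host microRNAs, and these 4 mature sequences are shown with the seed (bases 2 to 8) in capitals. They come from RefSeq on GRCm38.p6. The microRNAs themselves were not measured: the precursor gene Mir675, inside H19, had 0 UMIs in each library.
mmu-miR-675-5p (host H19, chr7:142577112-142577133, minus strand): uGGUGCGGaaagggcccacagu
mmu-miR-675-3p (host H19, chr7:142577078-142577099, minus strand): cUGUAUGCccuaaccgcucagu
mmu-miR-335-5p (host Mest, chr6:30741314-30741336, plus strand): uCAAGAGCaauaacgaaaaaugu
mmu-miR-335-3p (host Mest, chr6:30741354-30741375, plus strand): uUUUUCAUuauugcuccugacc
The 4 seeds differ from each other.

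Peg3 and Usp29 lie head to head on chromosome 7, and both were lower in the later granulosa libraries, so the stretch between them is shown. It is the RefSeq window of 300 bases around the Peg3 start on GRCm38.p6 (chr7:6730370-6730669, minus strand), with the palindrome GGGGCCCC in capitals.
Peg3 start: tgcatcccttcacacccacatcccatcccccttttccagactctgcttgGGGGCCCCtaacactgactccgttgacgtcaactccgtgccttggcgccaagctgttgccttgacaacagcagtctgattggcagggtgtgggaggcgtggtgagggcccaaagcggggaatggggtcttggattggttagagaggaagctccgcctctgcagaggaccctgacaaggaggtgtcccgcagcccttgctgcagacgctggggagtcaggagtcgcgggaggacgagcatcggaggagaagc
The corresponding window of Usp29 (chr7:6730333-6730632, plus strand) shares 263 bases with it and holds the same GGGGCCCC at chr7:6730613-6730620. Windows of this length were found for 31 of the 40 genes, 46 windows in all. On either strand, GGGGCCCC was present in 3 of these 46, those of Peg3, Usp29 and Ppp1r9a, and in 1.07% of all 32817 windows. The motif GCCATNTT, searched on both strands, was present in 1 of the 46, that of Ube3a, and in 6.04% of all windows. TATAAA, also searched on both strands, was present in 10 of the 46, from 8 members, and in 13.6% of all windows. The 46 windows held a median of 17 CG dinucleotides (quartiles 8.25 and 24.75), against 7 (quartiles 3 and 20) over all 32817.

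After removal of 6 barcodes, 1548 of 1554 cells remained: 456 at ED16.5, 509 at PND7 and 583 at PND14. The total was 8743797 to 9065595 UMIs per library, with a median of 11435 to 15090.5 UMIs per cell, and no barcode was shared between libraries. Each cell was assigned to at most 1 of 9 classes by 109 marker genes, none of which is among the 40, and 1216 cells received a class. In the order ED16.5, PND7 and PND14, the classes held 51, 80 and 83 granulosa cells (the supporting cells around the germ cells), 88, 203 and 184 stroma cells, and 19, 21 and 27 endothelial cells. Germ cells numbered 67, 12 and 3, and erythroid cells, the red blood cell precursors, 129, 16 and 4. Classes with fewer than 10 cells in a library were not used there, nor were the 12 cells gated as theca at PND7, in which the defining marker Cyp17a1 was at 0. The granulosa markers summed to 4372, 5408 and 8150 CPM (UMIs of a gene scaled to a class total of 1000000) in granulosa cells, and the endothelial markers to 5689, 6086 and 5331 CPM in endothelial cells. At ED16.5, Hsd17b1 and Esr2 of the 17 granulosa markers were at 0, and 83 of the 88 embryonic stroma cells lay in a cluster that could not be named and was led by Ptn, Ncam1 and Meg3. The classes were also held by different clusters at different ages: all 51 embryonic granulosa cells lay in cluster 0, 77 of 80 at PND7 in cluster 13, and 75 of 83 at PND14 in cluster 14. No doublet caller was run, so a droplet with RNA of a pair of cells can be in any class.

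H19 makes a long non-coding RNA from the maternal copy next to Igf2, and it lies at chr7:142575529-142578143 on GRCm38. In granulosa cells it was at 2948 CPM at ED16.5 (95% interval 2840 to 3059), 28.6 CPM at PND7 (21.4 to 37.4) and 18.2 CPM at PND14 (11.8 to 26.8). In stroma the levels were 1640.4 (1577 to 1706), 124 (110.0 to 139.5) and 5.14 CPM (2.46 to 9.45). The embryonic library was the high one in both classes, far outside the counting intervals of the later libraries. H19 was 103-fold lower at PND7 than at ED16.5 in granulosa cells (78.5 to 138) and 13.2-fold lower in stroma (11.7 to 15.01). From PND7 to PND14 it was 24.2-fold lower again in stroma (12.9 to 50.9). Between these ages the granulosa intervals overlapped.

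The embryonic H19 level was spread over the cells and did not come from a few. Each of the 51 embryonic granulosa cells held at least 1 H19 UMI, and so did each of the 88 stroma cells and 19 endothelial cells. With every cell thinned to 5000 UMIs, the granulosa cells held a lowest value of 3, a median of 13 and a highest value of 33 H19 UMIs. The thinned share with a UMI was 100% of 51 granulosa cells (exact binomial interval 93.0 to 100) and 19.4% of 129 erythroid cells (12.95 to 27.3), used here as the background class; unthinned, 69 of the 129 erythroid cells held 1. After birth the thinned shares were 7.5% of 80 granulosa cells at PND7 (2.80 to 15.6) and 3.61% of 83 at PND14 (0.752 to 10.2). The 16 erythroid cells of PND7 held 0 H19 UMIs, which allows a share of up to 20.6% by the exact interval, so the PND7 granulosa share was not distinguishable from background at this depth. The 4 erythroid cells of PND14 were too few for a background.

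Endothelial H19 did not follow the same order of ages. It was at 1185 CPM at ED16.5 (1091 to 1285), 45.4 CPM at PND7 (28.8 to 68.2) and 329 CPM at PND14 (288 to 374). The PND14 value rested on few cells: 7 of the 27 endothelial cells held any H19, and the 3 richest held 156 of the 233 UMIs, with 63, 51 and 42. Of the 7 carriers, 6 lay in endothelial cluster 4, with summed endothelial markers of 2707 to 7671 CPM per cell, and 6 also held Mest. The cell with 41 H19 UMIs also had 4945 CPM of granulosa markers. Over all PND14 endothelial cells the granulosa markers summed to 999 CPM (median cell 365 CPM) and the stroma markers to 1188 CPM, against 403 and 676 CPM at PND7. The part of other cells' RNA in the endothelial H19 level was not tested.

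Igf2 encodes insulin-like growth factor 2, the main fetal growth factor of this group, and is transcribed from the paternal copy. It was low in every class: in granulosa cells 62.7 CPM at ED16.5 (47.8 to 80.7, from 60 UMIs), then 0 UMIs at PND7 and at PND14. Its ED16.5 level was 38.7-fold the level that 3 UMIs would give in the PND7 sum, which is not an interval bound. In stroma it was at 29.9, 1.77 and 0 CPM, and in endothelial cells at 38.5, 3.95 and 0 CPM. These values are uncertain, because all of the last 500 bases of its transcripts are shared on the same strand with the annotated gene Gm49394, listed at 0 UMIs, and counting can drop reads that match both.

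Cdkn1c encodes the cyclin-dependent kinase inhibitor p57, which restrains proliferation, and is expressed from the maternal copy. Its granulosa levels were 1303 CPM at ED16.5 (1232 to 1377), 13.5 CPM at PND7 (8.74 to 19.9) and 21.1 CPM at PND14 (14.1 to 30.3). The postnatal granulosa intervals overlapped, and both lay far below the embryonic one: the PND7 level was 96.5-fold lower (65.1 to 149.7). Stroma kept more of the transcript, with 471 (438 to 507), 173 (156 to 191) and 61.1 CPM (50.6 to 73.1). The stromal steps were 2.73-fold lower at PND7 (2.41 to 3.09) and 2.83-fold lower again at PND14. Endothelial cells were at 375, 119 and 53.6 CPM. In the embryonic library H19 and Cdkn1c were present together in 51 of 51 granulosa cells and 79 of 88 stroma cells.

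Cdkn1c belongs to the domain of Kcnq1ot1, a long RNA of the paternal copy that silences its neighbours in cis. Kcnq1ot1 was at 307, 183 and 176 CPM in granulosa cells, 1.68-fold lower at PND7 than at ED16.5 (1.43 to 1.97), a much smaller step than that of Cdkn1c. Cd81, a membrane protein of the same region, was at 522, 1056 and 912 CPM in stroma; its PND7 level was 2.02-fold higher and sat on the 2-fold threshold. Tssc4 ranged from 36.3 to 63.2 CPM over granulosa, stroma and endothelial cells at the 3 ages. Ascl2, a transcription factor of the placenta, was at most at 6.3 CPM in any class. Phlda2 and Slc22a18 had most of their UMIs in the germ cells of ED16.5 (69 of 95 and 14 of 21) and are given with that class.

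Mest encodes a paternally expressed protein of the hydrolase family and lies at chr6:30723547-30748465. Endothelium was its highest class at each age: 2239.7 CPM at ED16.5 (2110 to 2376), 356 CPM at PND7 (306 to 412) and 159 CPM at PND14 (131 to 192). Granulosa cells were at 417 (377 to 460), 18.4 (12.7 to 25.7) and 4.36 CPM (1.60 to 9.49), and stroma at 432 (400 to 466), 88.6 (76.8 to 102) and 29.3 CPM (22.2 to 37.9). Each class therefore stepped down at both ages, with intervals that did not overlap. The first step was 22.7-fold in granulosa cells (16.0 to 33.2), 4.87-fold in stroma (4.15 to 5.74) and 6.30-fold in endothelium (5.37 to 7.41). All 19 embryonic endothelial cells still held Mest after thinning, between 3 and 20 UMIs with a median of 10. Copg2, a coat protein subunit gene whose 3' end overlaps Mest on the opposite strand over 912 exon bases, stayed between 7.7 and 27.5 CPM in these 3 classes; whether the counting used strand is not given in the sources used here.

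Peg3, Usp29 and Zim1 are neighbours on chromosome 7. Peg3, a paternally expressed zinc finger gene, was at 794 (739 to 853), 206 (186 to 228) and 46.5 CPM (35.8 to 59.4) in granulosa cells and at 294, 69.6 and 40.1 CPM in stroma. In endothelium it was at 34.5, 13.8 and 24.0 CPM. Of these 3 classes granulosa cells were highest at each age, and they stepped down at each age, by 3.86-fold (3.41 to 4.38) and then 4.43-fold (3.39 to 5.86). Usp29, a paternally expressed gene for a ubiquitin protease, was at 33.4, 18.9 and 1.45 CPM in granulosa cells, 13.01-fold lower at PND14 than at PND7 (3.34 to 112). In the embryonic library all 16 granulosa cells with Usp29 also held Peg3, which was present in 50 of the 51. Zim1, the maternally expressed zinc finger neighbour, was at 70.0 (54.3 to 88.9), 8.10 and 0.726 CPM in granulosa cells, the last from 1 UMI. In stroma Zim1 was at 20.8, 3.10 and 2.05 CPM, and in endothelium at 4.06, 0 and 0 CPM.

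Peg10, Sgce, Ppp1r9a and Asb4 lie together on chromosome 6 and differed in class and age. Peg10, a paternally expressed gene derived from a retrotransposon, was at 292 (258 to 328), 12.96 (8.31 to 19.3) and 55.9 CPM (44.1 to 69.9) in granulosa cells. It was thus 22.5-fold lower at PND7 than at ED16.5 (14.8 to 35.7) and 4.31-fold higher at PND14 than at PND7 (2.70 to 7.14). The PND14 granulosa level came mostly from 3 cells, which held 47 of the 77 UMIs. Those 3 cells also had 1543, 1487 and 252 CPM of theca markers, and the part of theca RNA in this level was not tested. At PND14 theca cells, the androgen producers of the follicle's outer layer, were highest, with 188 CPM (163 to 215) and a UMI in 39 of 53 cells. Stroma was at 29.9, 30.1 and 52.9 CPM and endothelium at 89.3, 39.5 and 12.7 CPM, so the endothelial values went down from PND7 to PND14 where the granulosa value went up.

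Sgce, which encodes a sarcoglycan from the paternal copy and starts beside Peg10, was at 73.1, 43.8 and 44.3 CPM in granulosa cells, without the large steps of Peg10. Of the 53 theca cells at PND14, 39 held Peg10, 24 held Sgce and 18 held both. Ppp1r9a, a gene for a scaffold protein, was nearly flat in granulosa cells (77.3, 64.8 and 67.6 CPM). Asb4, a maternally expressed subunit of ubiquitin ligases, was highest in endothelium at ED16.5 and PND7. Its endothelial levels were 60.9 (41.1 to 86.9), 31.6 (18.1 to 51.3) and 5.65 CPM (1.54 to 14.5). It was 5.60-fold lower in endothelium at PND14 than at PND7 (1.81 to 23.0). Granulosa cells never held more than 4.18 CPM of Asb4 and stroma never more than 7.70 CPM, while theca cells at PND14 were at 14.3 CPM.

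Plagl1, a paternally expressed zinc finger factor that acts on other imprinted genes, moved in opposite directions in different classes. In granulosa cells it was at 19.9 (12.0 to 31.0), 165 (147 to 185) and 79.9 CPM (65.7 to 96.3), low in the embryo and highest at PND7. Its PND7 granulosa level was 8.32-fold higher than at ED16.5 (5.24 to 14.0). In endothelium it was at 227 (187 to 273), 31.6 (18.1 to 51.3) and 18.3 CPM (9.77 to 31.4), 7.19-fold lower at PND7 (4.24 to 13.01). Stroma was at 108 (92.0 to 126), 136.5 (122 to 153) and 41.1 CPM (32.6 to 51.1), with the lower value only at PND14. The difference between granulosa and endothelial steps was not tested, since each rests on 1 library per age.

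Nap1l5, a paternally expressed gene for a nucleosome assembly protein, was nearly absent from the embryonic library, with at most 4.06 CPM in any class, and high in later granulosa cells. Granulosa cells held 0 UMIs at ED16.5, 16.7 CPM at PND7 (11.4 to 23.8) and 222 CPM at PND14 (198 to 249). It was 13.3-fold higher at PND14 than at PND7 (9.16 to 19.9). Its PND7 level was 5.34-fold the level that 3 UMIs would give in the embryonic sum, which is not an interval bound. At PND14, 23 of the 83 granulosa cells held a UMI, and the 3 richest held 146 of the 306 UMIs. All of those UMIs lay in the 75 cells of cluster 14 (245 CPM), and the 8 cells in cluster 13 held 0. Thinned, the median granulosa cell held 0 and the highest 30, with a share of 20.5% of cells (12.4 to 30.8), against 1.63% of the 184 stroma cells of the same library (0.338 to 4.69); unthinned, 5 of these stroma cells held a UMI. Stroma did not pass 2.57 CPM, and the 18.3 CPM of PND14 endothelium came from 1 cell, the same that carried 4945 CPM of granulosa markers.

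**Figure D1:**
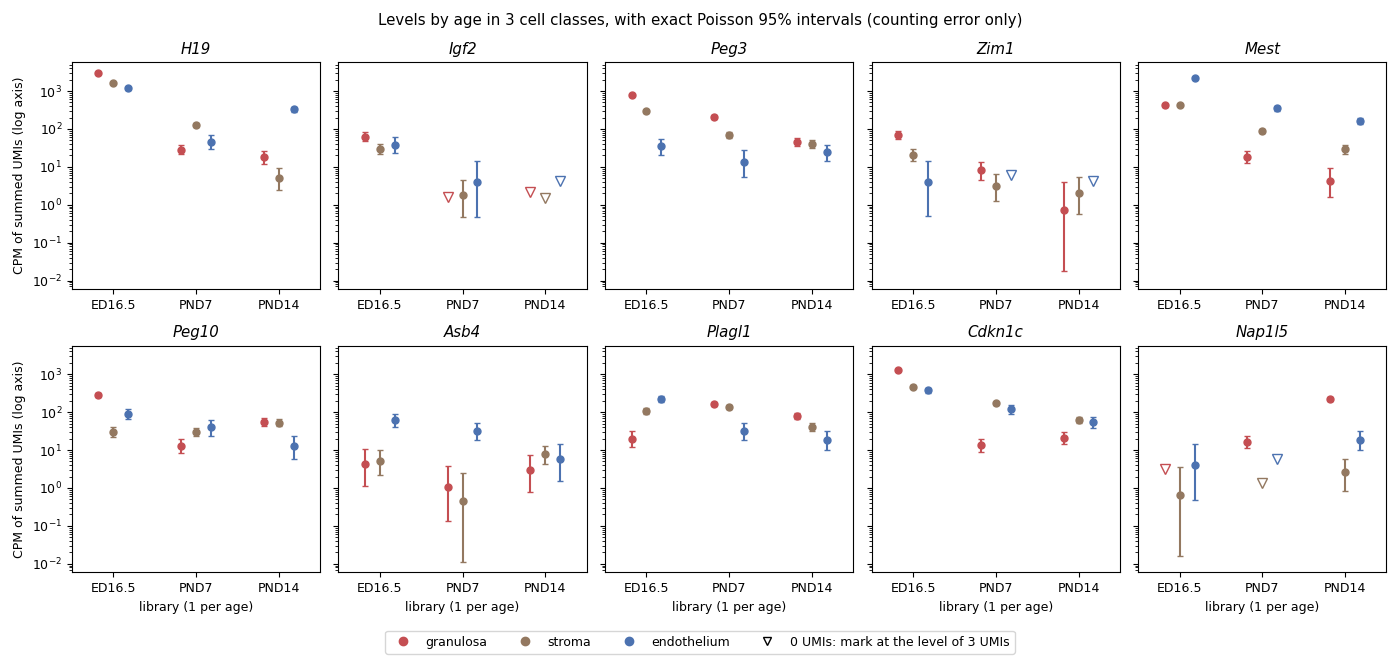
Levels of the 10 members with the widest range over ages, in CPM on a log axis, at ED16.5, PND7 and PND14 in granulosa, stroma and endothelial cells; bars are exact Poisson 95% intervals of 1 library each, and open triangles mark 0 UMIs, drawn at the level of 3 UMIs. H19 in granulosa cells goes from 2948 to 18.2 CPM while Nap1l5 goes from 0 UMIs to 222 CPM.

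The other measured members differed less with age. Grb10, a maternally expressed adaptor that restrains insulin and IGF signalling, was at 46.0, 14.0 and 13.8 CPM in granulosa cells, 3.27-fold lower at PND7 (1.97 to 5.54), but at 201, 131 and 134 CPM in stroma and 341, 194 and 151 CPM in endothelium. Igf2r, the maternally expressed receptor that clears IGF2, was at 38.7, 36.7 and 32.7 CPM in granulosa cells and 70.1, 26.1 and 17.0 CPM in stroma, 2.68-fold lower there at PND7. Airn, the paternal antisense RNA that silences Igf2r in cis in many tissues, was at 30.5, 28.4 and 18.0 CPM in stroma. Nnat, a paternally expressed membrane protein gene, was highest in granulosa cells at each age, at 137, 181 and 187 CPM, and was at 8.1, 15.8 and 21.2 CPM in endothelium. Its host and antisense neighbour Blcap was between 22.6 and 52.9 CPM in granulosa, stroma and endothelial cells.

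Gnas, whose products include the stimulatory G protein alpha subunit, was highest in endothelium at each age, at 3329, 2251 and 2301 CPM, and lower in granulosa cells, at 921, 589 and 544 CPM. Ndn, the paternally expressed gene for necdin, was at 77.1, 170 and 126 CPM in endothelium, 2.20-fold higher at PND7 than at ED16.5 (1.49 to 3.32), and at 173, 176 and 132 CPM in stroma. Its neighbour Magel2 did not pass 5.6 CPM in any class. Snrpn, a paternally expressed spliceosome gene, was at 40.8, 53.5 and 40.0 CPM in granulosa cells. All 216 exon bases of Snurf are shared with Snrpn, so its 0 UMIs cannot be read as absence. Ube3a, a ubiquitin ligase imprinted in neurons, was at 186, 146 and 137 CPM in granulosa cells, beside antisense exons of Snhg14. Impact, Zdbf2, Trappc9, Peg13, Mcts2, Inpp5f and Ddc were all under 50 CPM in granulosa, stroma and endothelial cells at all 3 ages, and H13 was between 70.8 and 117 CPM there.

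**Figure D2:**
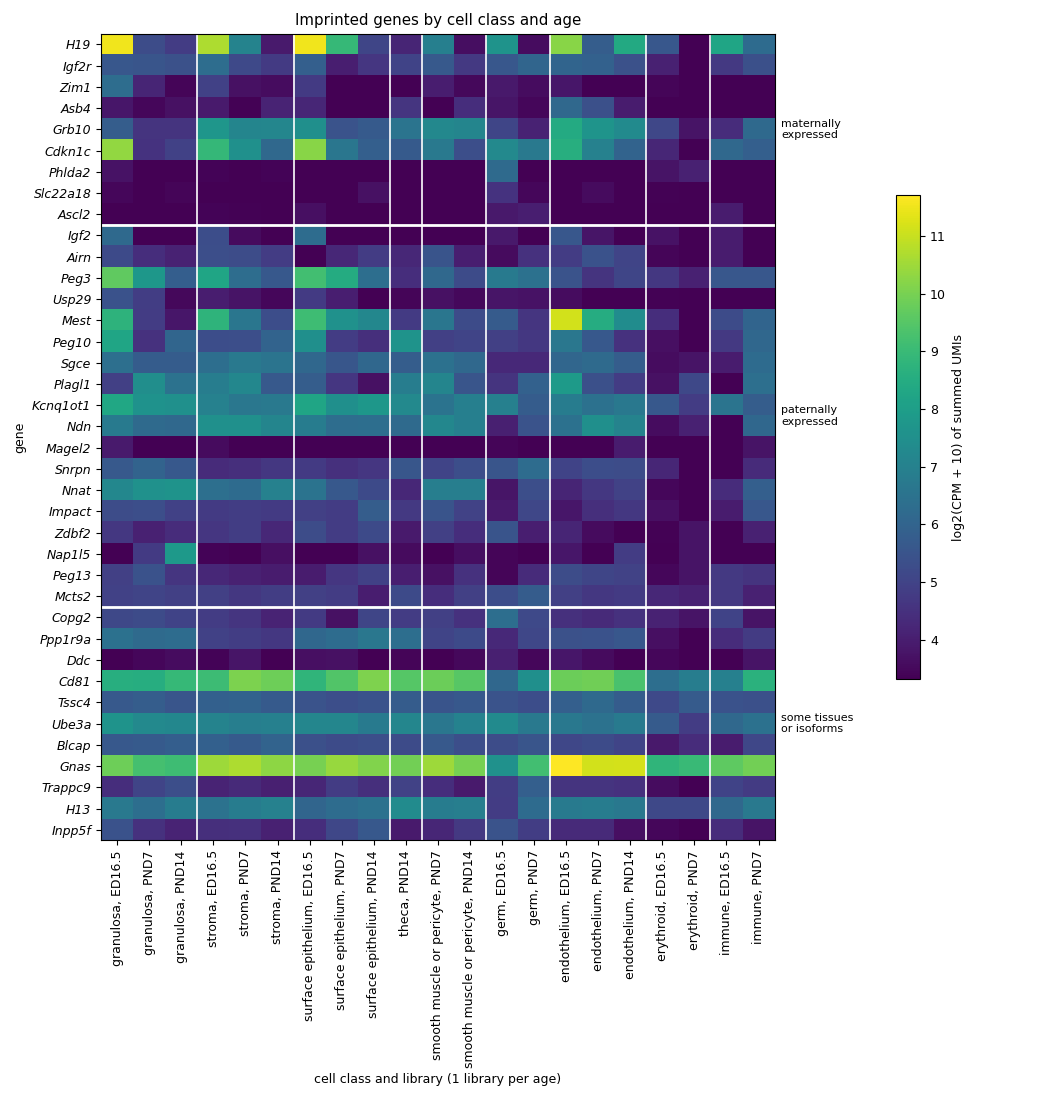
Level of each of the 38 measured members (rows, grouped as maternally expressed, paternally expressed, and imprinted in some tissues or isoforms) in each class and library used (21 columns), as log2 of CPM plus 10. The rows of H19, Cdkn1c, Peg3 and Mest are bright in the embryonic gonadal columns. Those of H19, Cdkn1c and Mest are also bright in embryonic endothelium, which is the highest class for Mest. Nap1l5 is bright only in PND14 granulosa cells.

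To compare the groups of genes, a member was called different where its level differed at least 2-fold on log2(CPM + 10) and the sums compared held at least 10 UMIs together; the offset of 10 understates the change of low genes. Members that reached 10 UMIs in a pair of sums are called measured in it. In granulosa cells 8 of 32 measured members were lower at PND7 than at ED16.5, where 6.27% of 12357 genes were, and 2 were higher, where 3.97% of genes were. The 8 were Cdkn1c, Grb10, H19, Igf2, Mest, Peg10, Peg3 and Zim1, and the 2 were Nap1l5 and Plagl1. In stroma 7 of 32 were lower (background 1.76% of genes), which were Cdkn1c, H19, Igf2, Igf2r, Mest, Peg3 and Zim1, and 1 was higher (background 2.18%), which was Cd81. In endothelium 6 of 28 were lower (background 1.79%), which were Cdkn1c, H19, Igf2, Mest, Peg10 and Plagl1, and 1 was higher (background 4.9%), which was Ndn. Peg10 in endothelium sat on the threshold, with a 2.26-fold difference in CPM.

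Of the maternally expressed members, 4 of the 5 measured in granulosa cells were lower at PND7, with a median log2 change of -2.14 over the 5. Of the 17 paternally expressed members measured, 4 were lower and 2 higher, with a median of -0.59. None of the 10 measured members imprinted in some tissues or isoforms differed 2-fold in granulosa cells (median -0.13), and the median over all genes was -0.12. In stroma the medians were -1.23, -0.11 and 0.08 for the maternal, paternal and part-imprinted groups, beside -0.01 over all genes. In endothelium they were -0.78, -0.23 and 0.01, beside 0.07. The maternal medians rest on 5 genes in each class. The maternal members summed to 4414, 102 and 90.1 CPM in granulosa cells, where the paternal group summed to 2390, 1069 and 994 CPM. H19 gave the largest part of the maternal sum at ED16.5, and Igf2r the largest at PND7 (35.98%) and PND14 (36.3%).

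From PND7 to PND14, a comparison that uses the PND7 library again, fewer members differed. In granulosa cells 2 of 31 were lower (Peg3 and Usp29; background 1.39%) and 2 higher (Nap1l5 and Peg10; background 1.01%), with Mest just short of the threshold at 4.21-fold lower in CPM (1.75 to 12.3). In stroma 4 of 31 were lower (Cdkn1c, H19, Mest and Plagl1; background 1.56%) and 0 higher (background 0.601%). In endothelium 4 of 28 were lower (Asb4, Cdkn1c, Mest and Peg10; background 1.04%) and 2 higher (H19 and Nap1l5; background 3.68%). Asb4 in stroma was 17.4-fold higher at PND14, from 1 UMI at PND7, so its counting interval reached from 2.67 to 732.

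**Figure D3:**
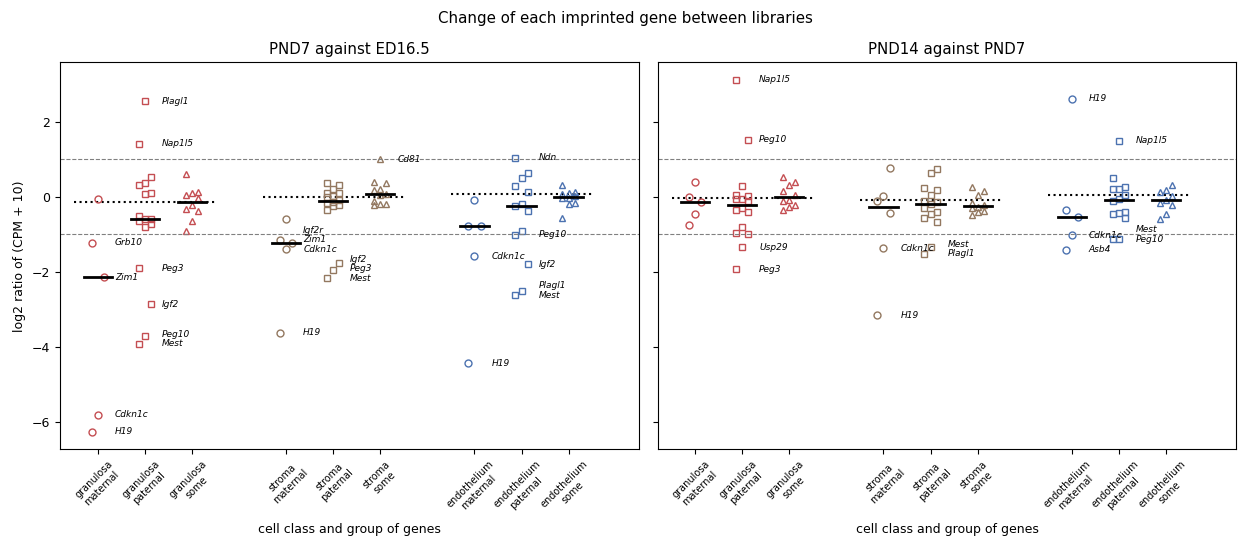
Log2 ratio of CPM plus 10 for each measured member in granulosa, stroma and endothelial cells, PND7 against ED16.5 and PND14 against PND7, split into the 3 imprinting groups; black bars are group medians, dotted lines the median of all genes and dashed lines a 2-fold difference. In granulosa cells the maternal median lies at -2.14 and the paternal one at -0.59 in the first comparison.

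The surface epithelium, the cell layer that covers the ovary, had embryonic levels near those of granulosa cells, from 14 cells: 2922 CPM of H19, 1182 CPM of Cdkn1c, 561 CPM of Peg3 and 541 CPM of Mest. At PND7, from 15 cells, 8 of 25 measured members were lower (background 6.55%) and 0 higher (background 6.59%). H19 was then still at 485 CPM, 6.03-fold lower than in the embryo (5.09 to 7.17), and was higher there than in any other class of that age. Cdkn1c was 13.3-fold lower at PND7 (9.11 to 20.1). By PND14 the H19 level in this class was 24.0 CPM.

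Smooth muscle cells and pericytes, the cells around vessels and follicles, numbered 22 at PND7 and 51 at PND14, and 5 of 27 measured members were lower at PND14 (background 2.85%) and 0 higher (background 2.72%). H19 went from 113 to 2.5 CPM, Airn from 34.7 to 6.3 CPM, Cdkn1c from 95.5 to 30.4 CPM, Mest from 86.8 to 27.9 CPM and Plagl1 from 130 to 36.8 CPM. The PND7 level of H19 came from 6 of the 22 cells, and the 3 richest held 34 of the 39 UMIs. That of Airn rested on 12 UMIs, 9 of them in 3 cells. Immune cells at PND7, 16 in number, held 73.1 CPM of Plagl1, 66.1 CPM of H19 and 59.2 CPM of Peg10. The stroma markers summed to 3847 CPM in those immune cells, and their part in these levels was not tested.

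Few members were higher, or lower, in both gonadal classes, granulosa and stroma, than in endothelium. At ED16.5, 3 of 32 members were at least 2-fold higher in both than in endothelial cells (Nnat, Peg3 and Zim1; background 6.16%) and 4 were lower in both (Asb4, Gnas, Mest and Plagl1; background 5.01%). Peg3 was 23.0-fold higher in granulosa cells (14.3 to 39.7) and 8.53-fold higher in stroma (5.27 to 14.8) than in endothelium. Mest was 5.37-fold lower in granulosa cells (4.79 to 6.04) and 5.19-fold lower in stroma (4.71 to 5.72). H19 and Cdkn1c separated granulosa cells from endothelium, by 2.49-fold (2.28 to 2.72) and 3.47-fold (2.97 to 4.07), but stroma only by 1.39-fold and 1.26-fold.

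The postnatal libraries gave similar counts, with Nnat among the higher and Mest among the lower members at each age. At PND7, 3 of 29 were higher in both (Nnat, Peg3 and Plagl1; background 3.07%) and 2 lower (Asb4 and Mest; background 6.13%). At PND14, 2 of 29 were higher (Nnat and Peg10; background 0.848%) and 2 lower (H19 and Mest; background 6.55%). The Peg10 and H19 calls at PND14 rested on few cells. The 3 richest Peg10 cells held 30, 11 and 6 UMIs in granulosa and 26, 14 and 10 in stroma. Their theca markers summed to 1543, 1487 and 252 CPM in granulosa and to 501, 215 and 59.8 CPM in stroma. The stroma cells with 26 and 14 UMIs lay in cluster 18, which could not be named and was led by Tmem100 and the theca marker Hhip. The part of theca RNA or theca-like cells in these Peg10 levels was not tested. After thinning, 170 of the 184 stroma cells held 0 Peg10 UMIs. Endothelial H19 came from 7 of the 27 cells. Mest was lower in granulosa cells than in endothelium by 5.37-fold at ED16.5, 19.4-fold at PND7 (13.4 to 28.8) and 36.6-fold at PND14 (16.3 to 101.8). Nnat was higher in granulosa cells than in endothelium at each age, by 16.9-fold (6.43 to 62.8), 11.4-fold (5.74 to 26.7) and 8.85-fold (5.27 to 16.0).

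Erythroid cells held little of most members. At ED16.5, 22 of 32 members were at least 2-fold higher in both gonadal classes than in erythroid cells, where 26.0% of genes were, and 0 were lower (background 4.14%). The 22 comprised 4 maternal, 12 paternal and 6 part-imprinted members. At PND7, 21 of 28 were higher in both (background 23.4%) and 0 lower (background 2.64%). The PND7 erythroid sum held only 16 cells, and 3 UMIs in it equal 10.8 CPM. Among the members called there, Snrpn, Trappc9 and Inpp5f had 0 erythroid UMIs, and their intervals for stroma against erythroid cells included 1. In the 129 embryonic erythroid cells H19 was at 38.6 CPM, Peg3 at 15.8 CPM, Mest at 11.4 CPM and Cdkn1c at 8.8 CPM. Whether these came from free RNA of other cells was not tested. Of the cells gated as erythroid, 19 lay in a cluster led by Ccl5, Cma1 and Gzma, which are not erythroid genes.

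**Figure D4:**
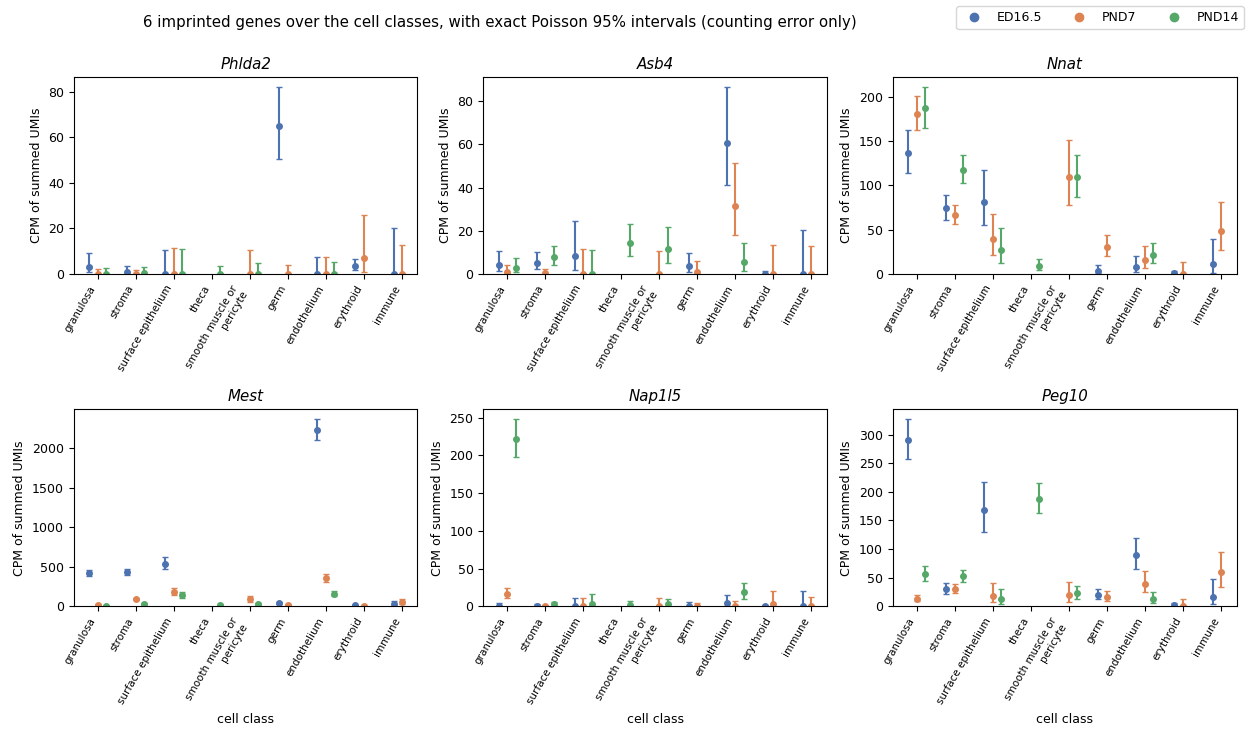
Levels in CPM of Phlda2, Asb4, Nnat, Mest, Nap1l5 and Peg10 in each class and library used, with colours for the 3 libraries and bars for exact Poisson 95% intervals. Phlda2 has its highest level in embryonic germ cells (65.1 CPM), Asb4 and Mest in endothelium (60.9 and 2239.7 CPM at ED16.5), and Peg10 at PND14 in theca cells (188 CPM).

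Phlda2 and Slc22a18 were among the members with their highest embryonic level in germ cells. At ED16.5, when these cells are in meiosis, Phlda2, a maternally expressed gene that limits placental growth, was at 65.1 CPM (50.6 to 82.4, from 69 UMIs), and its neighbour Slc22a18, a transporter gene, at 13.2 CPM. Neither passed 7.2 CPM in any other class, and Phlda2 was 17.7-fold higher in germ cells than in erythroid cells (9.07 to 38.5). The signal came from few cells: 6 of 67 held Phlda2, all in cluster 9, and the 3 richest held 57 of the 69 UMIs. Slc22a18 was also present in 6 cells, 4 of them shared with Phlda2. In the 12 oocytes of PND7 Phlda2 was at 0 UMIs, which allows a share of cells of up to 26.5% by the exact interval. The thinned embryonic share was 5.97% (1.65 to 14.6), so 12 cells are too few to show a lower share.

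Other members differed in level between the germ cells of the 2 ages. H19 was at 187 CPM in the embryonic germ cells and 2.11 CPM in the PND7 oocytes, and Cdkn1c at 145 and 95.1 CPM. Copg2 was at 70.7 and 26.4 CPM, Zdbf2 at 34.9 and 6.3 CPM, and Gnas at 180 and 566 CPM. For H19, the 3 richest embryonic germ cells held 118 of the 198 UMIs. After thinning, 32.8% of embryonic germ cells held H19 (21.8 to 45.4), an interval that overlaps that of the embryonic erythroid cells (19.4%, 12.95 to 27.3). From ED16.5 to PND7, 7 of 31 members were lower in germ cells (Copg2, H19, Kcnq1ot1, Mest, Phlda2, Slc22a18 and Zdbf2; background 10.7%) and 8 higher (Cd81, Gnas, H13, Impact, Ndn, Nnat, Plagl1 and Trappc9; background 18.2%). The background is high in this comparison, and the members' share was nearer to it for higher than for lower members. Of the lower members, H19, Phlda2 and Slc22a18 had most of their embryonic UMIs in 3 cells each. Granulosa markers summed to 225 CPM in the embryonic germ cells and 1021 CPM in the oocytes, and their part in the oocyte levels was not tested. At ED16.5, 6 of 30 members were higher in germ cells than in endothelium (background 22.9%) and 16 lower (background 16.9%).

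Factors that set or keep imprints were followed as a list of 20 genes. In germ cells 6 of 18 measured were higher at PND7 than at ED16.5 (background 18.2%) and 2 lower (background 10.7%, near the share of this list). Zfp57, a zinc finger protein that keeps imprints methylated after fertilisation, had 0 UMIs in the fetal germ cells and 190 CPM in the oocytes (163 to 220). Dppa3, an egg protein that protects maternal methylation after fertilisation, was at 145 and 2963 CPM, and Kdm1b, a histone demethylase needed to set maternal imprints in oocytes, at 11.3 and 140.5 CPM. Hells was lower, at 802 and 87.7 CPM, and so was Setdb1, at 150.0 and 42.3 CPM. In granulosa cells Uhrf1, which guides maintenance methylation during replication, was higher at PND7 (6.27 and 56.7 CPM) and Tet2, a dioxygenase that oxidises methylcytosine, lower (36.6 and 10.8 CPM), of 18 measured, where 3.97% and 6.27% of all genes were. In stroma 0 of 18 differed 2-fold, where 2.18% of all genes were higher and 1.76% lower. In endothelium 0 of 16 did, where 4.9% were higher and 1.79% lower. With shares this small, a count of 0 in so short a list sets these factors little apart from other genes.

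The partners of Igf2 in growth control, a list of 23 genes, moved in both directions. In granulosa cells 3 of 20 measured were higher at PND7 than at ED16.5 (background 3.97%) and 6 lower (background 6.27%), with a median log2 change of -0.09 beside -0.12 over all genes. The IGF1 receptor gene Igf1r went from 99.3 to 225 CPM, the binding protein gene Igfbp7 from 9.40 to 39.4 CPM, and the transcription factor gene Mycn from 14.6 to 46.5 CPM. Igfbp4 went from 332 to 58.3 CPM, the transcription factor Sox11 from 114 to 16.2 CPM, and Igf2bp1, whose protein binds Igf2 mRNA, from 18.8 to 2.16 CPM. In stroma 4 of 21 were higher (Gpc3, Igf1, Igfbp6 and Igfbp7; background 2.18%) and 4 lower (Igf2bp1, Igf2bp2, Igfbp5 and Sox11; background 1.76%). In endothelium 3 of 17 were higher (Igfbp5, Igfbp7 and Mycn; background 4.9%) and 3 lower (Hmga2, Igf2bp1 and Igfbp2; background 1.79%). Igf2bp1 was thus lower at PND7 in all 3 classes, at 15.6 and 0 CPM in stroma and 62.9 and 0 CPM in endothelium.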

How the data were processed

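The authors deposited 1 table of raw UMI counts per library (10x Chromium 3' v2), made with Cell Ranger 2.1.1 on GRCm38, per the submitters' processing notes; the sources used here give neither strand setting nor annotation release. The deposited counts hold 53465 genes, of which 50604 identifiers match GENCODE M21 with version and 53274 without. Barcodes under 200 detected genes or above 20% mitochondrial UMIs were dropped. Each cell was scored for 9 marker lists, scaled within its library, and gated to the best class at a score of at least 0.2, a margin of at least 0.2 over the next and at least 3 markers detected. The form and limits of this gate were set after viewing how gated cells fell over clusters and libraries, and scaling over all cells had been tried first and left most embryonic stroma ungated. For checks, cells were clustered with the Leiden method in scanpy 1.11.5 (2000 variable genes without the members, 30 components, 15 neighbours, resolution 1), giving 21 clusters, and 40 of 949 gated cells in named clusters had another cluster name. Stroma held 8, 85 and 83 cells near the gate's limits, and 14.0%, 22.0% and 26.8% of cells stayed ungated.

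Raw counts were summed per class and library and scaled to CPM, with exact Poisson 95% intervals; ratios carry conditional binomial intervals, and shares of cells Clopper-Pearson ones, all exact (scipy 1.17.1). The script was tested on simulated counts. Full values are given for members with at least 100 UMIs in all and at least 4-fold between libraries within granulosa, stroma or endothelial cells on CPM + 10, and other measured members by level; of the added lists, the 3 genes furthest each way are valued. The members, lists and groups were chosen with earlier results of these data known. The 10-cell minimum, the motifs, the tables of single cells and the omission of PND7 theca (Cyp17a1 at 0) were chosen after values were seen. All libraries shared a sequencing lane, per the labels. Alternatives were other offsets, UMI minima, scalings, gates and cluster classes.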

Additional observations from a re-analysis of the deposited data

Results flagged for a closer look

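Members whose level went in opposite directions in different classes between the same ages were singled out; each value is a log2 change of CPM plus 10 from 1 library per age, and the difference between classes was not tested. Plagl1 changed by 2.55 in granulosa cells and by -2.51 in endothelium between ED16.5 and PND7. Between PND7 and PND14 H19 changed by -3.15 in stroma and by 2.61 in endothelium, where 3 of 27 cells held 156 of 233 UMIs. Over the same ages Peg10 changed by 1.52 in granulosa cells, where 3 cells held 47 of 77 UMIs, and by -1.13 in endothelium.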

How the results depend on the processing

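No paired analysis was possible because each age has 1 library. All 34 member changes followed across settings, each at least 2-fold as reported, kept their direction in all 272 alternatives run. The other offsets and UMI minima cannot alter a direction, so those alternatives say nothing about it. All alternatives reuse the same 1 library per age. Counts of members differing 2-fold between PND7 and ED16.5 moved as follows. With an offset of 50 CPM, members higher in granulosa cells went from 2 to 1, lower in stroma from 7 to 4, and higher in stroma and in endothelium from 1 to 0. Without haemoglobin, mitochondrial and ribosomal protein genes, members higher in stroma and in endothelium went from 1 to 0. With means over cells, these became 0 and 2; with an offset of 1 CPM, members higher in stroma became 2. With clusters for classes no embryonic cluster met the rule for stroma, so embryonic stroma and gonadal counts had no value; taking the unnamed cluster as stroma, an alternative chosen after seeing the data, left 0 members higher in stroma. Members lower in granulosa cells at PND14 than PND7, 2 as reported, were 6 with an offset of 1, 1 with an offset of 50 and 4 with means over cells. At ED16.5, members higher in both gonadal classes than in endothelium went from 3 to 5 with an offset of 1, and those above erythroid cells from 22 to 8 with an offset of 50. The maternal median in granulosa cells, -2.14, was -2.96 with an offset of 1, -1.05 with an offset of 50, -0.81 with no UMI minimum, and -0.28 with genes imprinted in some tissues added. The 80 other checks of these counts and medians stayed within 1.5 times or within 0.5 log2. Depth limits low members: 3 UMIs equal 1.10 to 6.09 CPM in the sums of granulosa, stroma and endothelial cells and of embryonic erythroid cells. The limit is higher in smaller classes. It is 8.46 to 9.20 CPM in surface epithelium and 8.68 CPM in smooth muscle cells and pericytes at PND7. Immune and erythroid cells of PND7 have limits of 10.4 and 10.8 CPM.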
